A study of Mus musculus with 4 samples.

Results

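Cdh2 and Ada-high MK cells are the 718 cells with the highest summed level of 5 genes among 7175 kept cells of the MK RNA library, a mouse keratinocyte culture. A cell was kept with 1000 or more genes and at most 15% mitochondrial unique molecular identifiers (UMIs). Its score was the mean of log1p(UMIs per 10000) over Ada, Cdh2, Hes6, Ppp4r4 and Prnd, and members are the top 10%, chosen by these measured levels. They were compared with the 3588 cells of the middle 50%, here called middle cells. The library held 7780 cell barcodes, of 15349 in both RNA libraries of the series.

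The series read transcriptomes and heritable DNA tags of single cells of the line MK, in an RNA library and a tag library labelled MK and another pair labelled Diff_MK. Cells of all 4 libraries carry the treatment label Dox, were grown in E low medium with 15% fetal bovine serum, and were sorted for the GFP that goes with the tag, so cells without the tag were sorted out. The labels do not spell out Diff, and every group is 1 library of 1 line. The Diff_MK pair, which the choice of members did not use, serves below as the second library.

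Keratinocytes attach to the basement membrane as Krt5 and Krt14-positive basal cells and, as they move up the epidermis, turn on genes of the cornified envelope such as Lor (loricrin). They hold on to each other mainly through E-cadherin (Cdh1) and P-cadherin (Cdh3). N-cadherin (Cdh2) is better known from neural, muscle and mesenchymal cells, and its gain by epithelial cells is widely used as a sign of a mesenchymal shift. Of the other score genes, Ada encodes adenosine deaminase, which turns adenosine into inosine, and Hes6 a basic helix-loop-helix protein that counteracts Hes1. Ppp4r4 encodes a regulatory subunit of protein phosphatase 4, and Prnd the prion-like membrane protein doppel.

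Members had a median of 15084 UMIs and 3877.5 genes, against 15581 UMIs and 3865 genes in middle cells. Mitochondrial UMIs made up a median of 6.36% in members and 5.33% in middle cells, and their part in the differences below was not tested. Summed counts held 11134377 UMIs for members and 58405649 for middle cells, and levels are given in CPM, a gene's UMIs scaled to a common total per group. The libraries shared 14 cell barcodes, 9 of them between kept cells, and none of these 9 was a member. With 1 library per group no test between groups was possible, so ratios carry 95% intervals that cover counting error only.

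The score ran without a gap through the threshold. The lowest member scored 0.533035 and the highest cell outside 0.532869, and 192 members and 248 other cells lay within 0.05 of the threshold. A class taken from such a score is a range of values. The highest score was 1.08, members had a median of 0.639 and middle cells of 0.201, and 1290 kept cells (18.0%) scored 0. Of the members, 414 (57.7%) had UMIs of 4 or 5 of the score genes, against 1.37% of middle cells. When every cell was thinned to 7500 UMIs and scored again, 465 of 683 members deep enough remained in the top 10%.

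**Figure D1:**
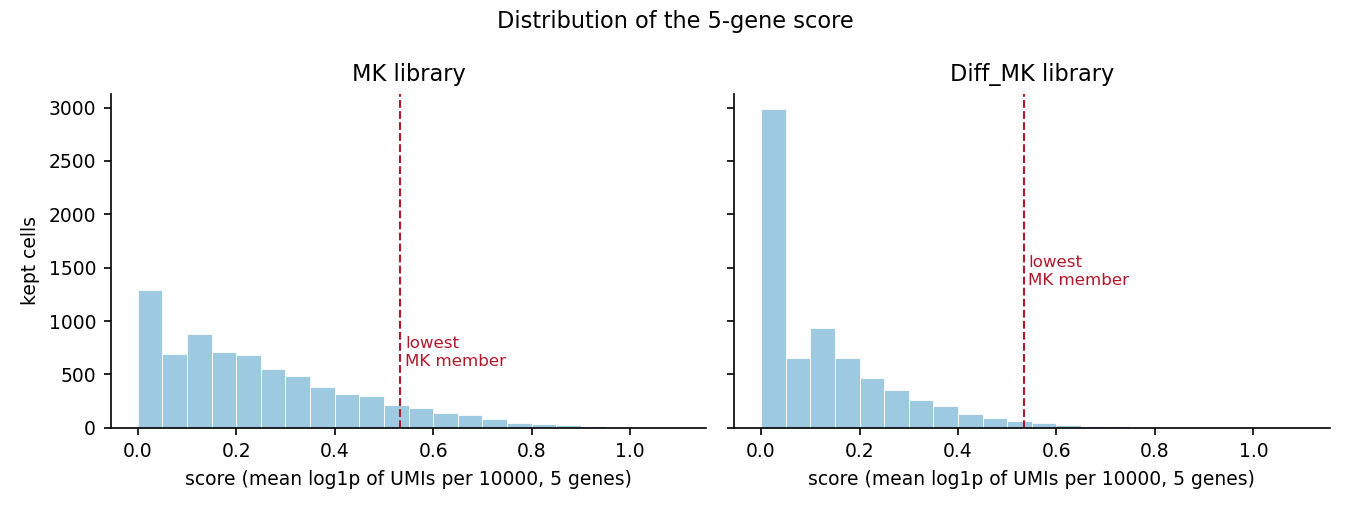
Number of kept cells (vertical axis) by 5-gene score (horizontal axis, bins of 0.05) in the MK and Diff_MK RNA libraries, with the lowest score of an MK member, 0.533, as a dashed line. The MK distribution falls off smoothly through the line, and 146 Diff_MK cells lie beyond it.

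The 5 score genes chose the members, so their levels describe the choice. Hes6 had 269 CPM in members and 49.3 CPM in middle cells. Ada had 150 CPM in members and 34.5 CPM in middle cells. Cdh2 had 94.1 CPM in members and 33.7 CPM in middle cells. Even among members, Cdh2 UMIs were found in 72.8% of cells and Ppp4r4 UMIs in 47.4%, so that no score gene was seen in every member. Prnd had 65.3 CPM in members and 17.2 CPM in middle cells. Ppp4r4 had 43.5 CPM in members and 13.1 CPM in middle cells. A predicted antisense gene, Gm15485, overlaps Cdh2 and was listed at 0 in both groups.

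The sequences before the starts of 4 of these genes are shown because the genes were chosen for being high in the same cells and because Hes6 belongs to the protein family that reads E-boxes. Each is the 250 bases upstream of the RefSeq start on GRCm38.p6, written 5′ to 3′ on the gene's strand with matches to the E-box CANNTG in capitals. Hes6 and Prnd had 2 RefSeq entries each, and the first was used. In the GENCODE annotation Ppp4r4 starts at position 103532283, so its window lies inside the gene there. In genome order they lie at chr1:91414039-91414288 (Hes6, minus strand), chr2:131950611-131950860 (Prnd, plus strand), chr2:163750240-163750489 (Ada, minus strand) and chr12:103532315-103532564 (Ppp4r4, plus strand).
Hes6: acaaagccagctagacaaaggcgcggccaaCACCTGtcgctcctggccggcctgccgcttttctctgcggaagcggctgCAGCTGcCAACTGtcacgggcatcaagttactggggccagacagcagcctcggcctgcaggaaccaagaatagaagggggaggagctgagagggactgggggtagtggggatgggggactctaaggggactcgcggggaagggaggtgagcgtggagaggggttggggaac
Ada: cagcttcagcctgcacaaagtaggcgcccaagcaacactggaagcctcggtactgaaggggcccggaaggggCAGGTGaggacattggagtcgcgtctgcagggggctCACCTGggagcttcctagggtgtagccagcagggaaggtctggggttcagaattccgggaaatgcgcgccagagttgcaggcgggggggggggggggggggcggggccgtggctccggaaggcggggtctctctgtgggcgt
Prnd: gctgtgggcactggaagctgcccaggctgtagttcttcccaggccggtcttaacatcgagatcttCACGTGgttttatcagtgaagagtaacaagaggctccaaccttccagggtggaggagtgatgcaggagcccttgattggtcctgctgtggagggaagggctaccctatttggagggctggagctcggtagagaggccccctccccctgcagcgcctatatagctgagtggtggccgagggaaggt
Ppp4r4: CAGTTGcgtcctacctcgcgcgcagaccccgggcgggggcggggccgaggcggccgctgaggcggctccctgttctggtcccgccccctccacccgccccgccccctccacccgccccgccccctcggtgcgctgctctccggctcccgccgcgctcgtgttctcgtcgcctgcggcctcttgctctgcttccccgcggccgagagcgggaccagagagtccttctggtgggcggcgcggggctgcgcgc
Hes6 held 3 matches, Ada 2, Prnd 1 and Ppp4r4 1, and 66.2% of the 32851 RefSeq promoters held at least 1 in the same window on either strand. The N-box CACNAG, searched on both strands, was found 2 times in the window of Ppp4r4 and not in the other windows, and 36.7% of all promoters held it. No 1 site can match both motifs. These matches are letters in a window and were not tied to any measurement here.

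To leave each score gene out of the ranking of cells, cells were ranked by the other 4 genes and the top 10% were compared with the middle 50%. The 5 genes had been chosen together for being high in the same cells. Higher levels in MK therefore follow in part from that choice and are a description of it. All 5 genes were higher in the top cells of both libraries. Ada had 95.7 CPM in the top cells of MK and 39.3 CPM in the middle, a ratio of 2.43 (2.26 to 2.62). Hes6 had 138 CPM in the top cells and 65.0 CPM in the middle (ratio 2.12, 2.0 to 2.25). Cdh2 differed least, with 53.5 CPM in the top cells and 34.2 CPM in the middle (ratio 1.56, 1.43 to 1.72). In Diff_MK the ratio was 3.02 (2.75 to 3.32) for Ada, 1.85 (1.63 to 2.10) for Cdh2 and 2.16 (1.98 to 2.35) for Hes6. Ppp4r4 had a ratio of 1.89 in MK, and in Diff_MK 15.7 CPM in the top cells and 3.38 CPM in the middle (ratio 4.66, 3.76 to 5.76). Prnd had ratios of 1.74 and 2.37 in MK and Diff_MK. Over the 7175 single MK cells, Pearson's r between pairs of score genes lay between 0.02 (Ppp4r4 and Prnd) and 0.27 (Ada and Hes6), values limited by the few UMIs of these genes in a cell.

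**Figure D2:**
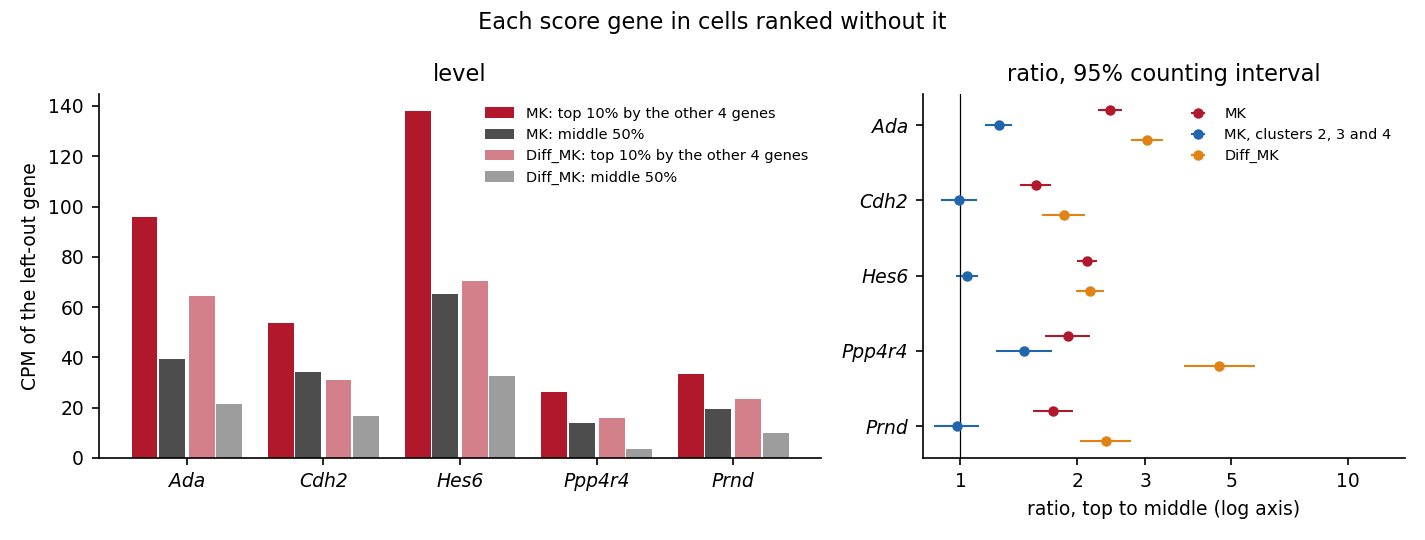
Left, CPM of each score gene in the top 10% and the middle 50% of cells ranked by the other 4 genes, in MK and Diff_MK; right, the ratio of top to middle on a log axis with 95% counting intervals, also within clusters 2, 3 and 4 of MK. All ratios of the whole libraries lie above 1, between 1.56 and 4.66, while those of Cdh2, Hes6 and Prnd within the 3 clusters have intervals that hold 1.

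Members lay together by genes the score did not use. Leiden clustering of the kept MK cells without the score genes gave 11 clusters, and clusters 2, 3 and 4 held 683 of 718 members (95.1%) but 28.2% of middle cells and 36.7% of all kept cells. Members made up 45.8% of cluster 4 (41.5 to 50.1), 24.1% of cluster 3 and 17.6% of cluster 2. They made up 0.429% of clusters 0, 1 and 5 together, 17 of 3967 cells. Cluster 4 was led by Lor, Pth1r and Gpnmb, cluster 3 by Eif2s3y, Tmem176b and Tmem176a, and cluster 2 by Casp4, Ccl2 and Eif2s3y. Among the clusters that held few members, cluster 0 had all 10 listed G2/M markers at 1.5-fold or more, cluster 1 had 7 of 10 S-phase markers and cluster 5 was led by Cnfn, Sprr1a and Krt6b. Of the clusters rich in members, cluster 3 had 4 of 10 G2/M markers at 1.5-fold, and clusters 2 and 4 had none. Of 8 granular keratinocyte markers, 7 were at 1.5-fold in cluster 5, 4 in cluster 4, 3 in cluster 2 and 2 in cluster 3.

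As a pool, these 3 clusters had higher levels of the score genes than the other clusters, but not every single cluster followed this. Ada had 87.1 CPM in clusters 2, 3 and 4 together and 22.2 CPM in all other clusters. Hes6 had 148 CPM in the 3 clusters and 32.9 CPM elsewhere. Cdh2 had 56.1 CPM in the 3 clusters and 26.0 CPM elsewhere. Prnd had 36.1 CPM in the 3 clusters and 12.6 CPM elsewhere. Ppp4r4 had 21.8 CPM in the 3 clusters and 11.5 CPM elsewhere. The highest Cdh2 of any cluster was in cluster 7 (89.8 CPM), where members made up 2.24% of cells. The highest Ppp4r4 was in cluster 6 (34.4 CPM), where they made up 2.58%. Ada in cluster 8 (79.3 CPM, 57 cells) was as high as in cluster 2 (78.6 CPM). Within the 3 clusters the genes parted: cluster 4 had the most Hes6 (326 CPM) and Ada (118 CPM), and less Cdh2 (42 CPM) and Prnd (19.5 CPM) than cluster 3, with 63.4 CPM of Cdh2 and 38.2 CPM of Prnd. When the ranking by the other 4 genes was compared inside clusters 2, 3 and 4 only, the ratio was 0.99 (0.89 to 1.10) for Cdh2, 0.98 (0.86 to 1.12) for Prnd and 1.04 (0.98 to 1.11) for Hes6. Ada kept a ratio of 1.25 (1.16 to 1.36) and Ppp4r4 of 1.46 (1.24 to 1.72). For Cdh2, Prnd and Hes6 the higher level in cells ranked by the other genes was thus seen across the whole library and not in the pool of these 3 clusters. The mix of the 3 clusters was not matched between top and middle cells, and no cluster was compared alone. Whether these genes were higher inside a single cluster was not tested.

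**Figure D3:**
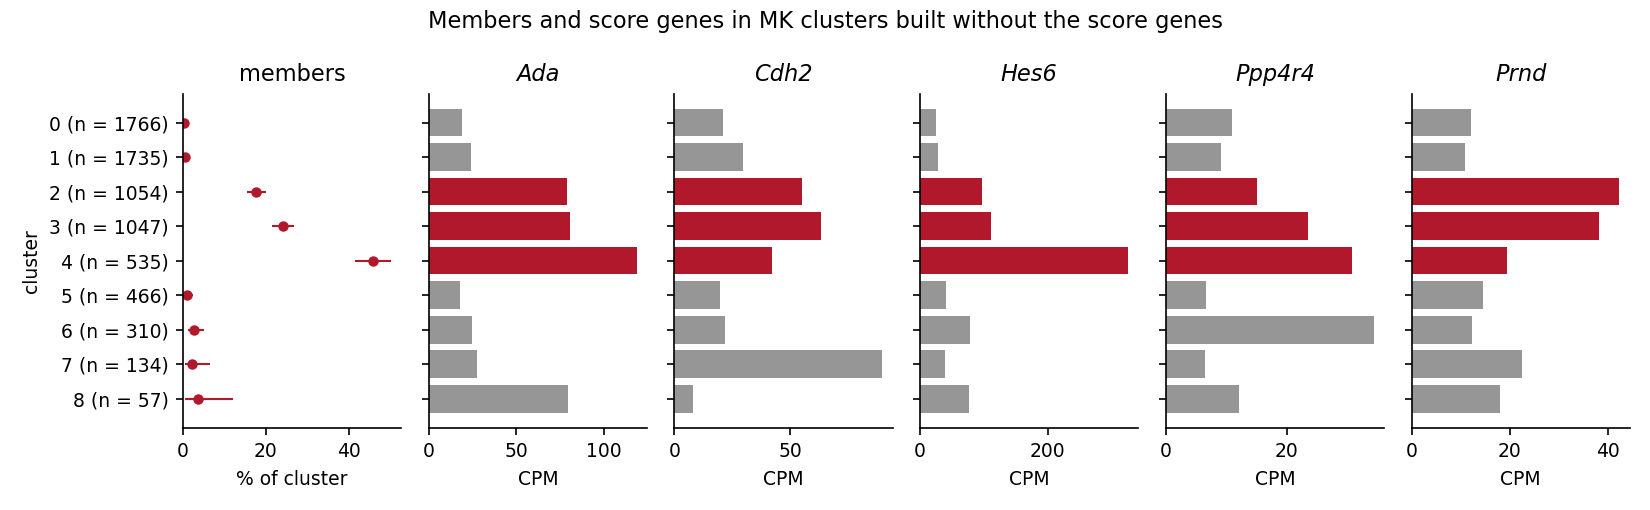
Share of members (left panel, with 95% exact binomial intervals) and CPM of each score gene (other panels) in the 9 largest MK clusters, built without the score genes; clusters 2, 3 and 4 are red. Members make up 17.6%, 24.1% and 45.8% of clusters 2, 3 and 4, and at most 3.51% of the other clusters drawn.

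Of 7908 genes at 10 CPM or more in members or middle cells, without the score genes, 897 (11.3%) had a ratio of at least 1.5, here called up, and 447 (5.65%) of at most 1/1.5, called down. At 2-fold, 350 genes (4.43%) were up and 89 (1.13%) down. All genes had a median log2 ratio of 0.03. Inside clusters 2, 3 and 4, with 683 members and 1012 middle cells, 490 of 7840 genes (6.25%) were up and 121 (1.54%) down. With 1 library these counts describe the cells and are not tests.

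The 12 genes with the highest ratio had ratios between 5.76 and 11.4, and the receptor for parathyroid hormone and its related peptide, Pth1r, came first. Pth1r had 37.8 CPM in members and 3.32 CPM in middle cells (ratio 11.4, 9.58 to 13.6). Lor and Tchh belong to the hardened layers of skin and hair. Lor, the main cornified envelope protein, had 293 CPM in members and 42.3 CPM in middle cells (ratio 6.92, 6.57 to 7.30), and after thinning 47.7% of members and 11.2% of middle cells had a Lor UMI. Tchh (trichohyalin), which stiffens the inner root sheath of hair, had 89.0 CPM in members and 14.8 CPM in middle cells. Ccn3, a secreted matricellular protein, had 37.1 CPM in members and 4.67 CPM in middle cells. Pkdcc, a secreted tyrosine kinase, had 21.6 CPM in members and 2.72 CPM in middle cells. Apart from Lor and Tchh, the 12 genes were rare in middle cells. The metallothionein Mt3 had 41.3 CPM in members and 4.18 CPM in middle cells. The calmodulin-binding neurogranin Nrgn had 22.9 CPM in members and 2.40 CPM in middle cells. The potassium channel Kcnj15 had 32.0 CPM in members and 4.07 CPM in middle cells. The others were an ethanolamine kinase, a gasdermin, a formin and Fam131c. The kinase Etnk2 had 26.0 CPM in members and 3.32 CPM in middle cells. The pore-forming gasdermin Gsdma had 29.7 CPM in members and 4.23 CPM in middle cells. The formin Fhod3 had 21.0 CPM in members and 3.65 CPM in middle cells. Fam131c had 42.3 CPM in members and 6.03 CPM in middle cells.

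Members were not alike in these genes. The 245 members of cluster 4 had 746 CPM of Lor, the 252 of cluster 3 had 62.9 CPM and the 186 of cluster 2 had 46.5 CPM. Pth1r stood at 86.7, 13.8 and 11.6 CPM in members of clusters 4, 3 and 2, and Gsdma at 75.1, 4.75 and 7.50 CPM. These 3 genes were thus high mainly in the members of cluster 4, which Lor and Pth1r helped to define. Others of the 12 were less uneven. Fhod3 stood at 30.2, 18.5 and 14.2 CPM in members of clusters 4, 3 and 2, against 3.65 CPM in middle cells. Mt3 stood at 81.4, 14.2 and 33.4 CPM, against 4.18 CPM. Cdh2 was lowest in cluster 4, at 67.5 CPM in its members, 106 CPM in those of cluster 3 and 110 CPM in those of cluster 2. Compared with middle cells of the same 3 clusters as a pool, all 12 genes still had ratios above 1, between 2.52 for Lor and 4.97 for Mt3. That pool was not matched for cluster, as cluster 4 held 245 of its 683 members and 103 of its 1012 middle cells. All cells of cluster 4 together had 903 CPM of Lor and 83.9 CPM of Pth1r, so its members did not stand above their own cluster in Lor. Members and middle cells of 1 cluster were not compared.

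The 12 genes with the lowest ratio lay between 0.126 and 0.361. They hold suprabasal and stress genes, with Lgals7 (galectin 7, a keratinocyte lectin) at 4.40 CPM in members and 35.1 CPM in middle cells (ratio 0.126, 0.0925 to 0.167). Krtdap, a secreted protein of the spinous layer, had 118 CPM in members and 575 CPM in middle cells (ratio 0.205). The cornified envelope precursor Sprr1a had 6.65 CPM in members and 26.1 CPM in middle cells. The stress keratin Krt16 had 69.5 CPM in members and 193 CPM in middle cells. Matrix and cytoskeletal genes were the next group. Vcan (versican) had 5.57 CPM in members and 27.3 CPM in middle cells. The activin antagonist Fst had 36.0 CPM in members and 169 CPM in middle cells. The tropomyosin Tpm1 had 43.2 CPM in members and 143 CPM in middle cells. Tubb2b, a tubulin, had 21.8 CPM in members and 76.6 CPM in middle cells. The non-muscle myosin Myh10 had 12.3 CPM in members and 34.5 CPM in middle cells. Pclaf, which binds PCNA in S phase, had 35.4 CPM in members and 129 CPM in middle cells. All of these genes were still detected in members. Gsta4 and Vegfb completed the 12, with ratios of 0.345 and 0.348. Inside clusters 2, 3 and 4, Krtdap had a ratio of 1.02 (0.939 to 1.10) and Krt16 of 1.07 (0.960 to 1.19), and the other 10 stayed below 1, between 0.419 for Tubb2b and 0.628 for Gsta4.

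**Figure D4:**
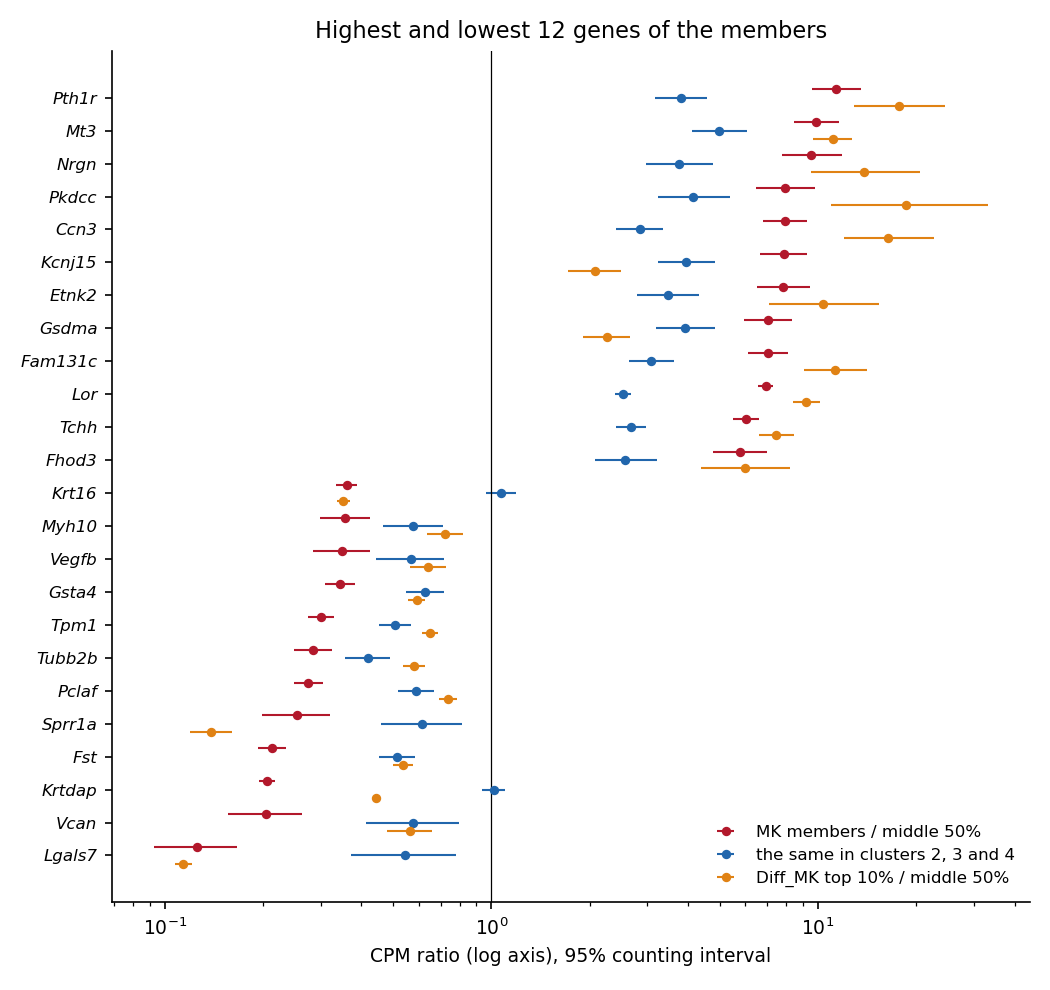
CPM ratio on a log axis, with 95% counting intervals, of the 24 named genes at the extremes of MK (12 high, 12 low), for members over middle cells, for the same cells inside clusters 2, 3 and 4, and for the top 10% over the middle 50% of Diff_MK. The first 12 genes lie right of 1 in all 3 comparisons, and Krtdap and Krt16 move to 1.02 and 1.07 inside the clusters.

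The levels of these genes already differed between classes of cells below the threshold. From the 1290 cells that scored 0 to the 359 of highest score, Lor stood at 13.4, 13.0, 21.1, 38.0, 82.3, 214, 283 and 302 CPM over 8 classes of rising score. Lor was thus level over the lowest classes and differed little between the highest. Krtdap stood at 743 CPM in cells that scored 0, 239 CPM in the class just below the members and 95.6 CPM in the highest class. Krt14 took the same course, with 8016, 4554 and 3275 CPM in those classes. All classes are cells of 1 library, and they follow from the same score that chose the members.

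Members had high levels of the basal keratins, though lower than middle cells. Of 17 measured basal keratinocyte genes 2 were up and 5 down (median log2 ratio −0.19, against 0.03 over all genes). Krt14 had 3764 CPM in members and 6502 CPM in middle cells. Krt5 had 593 CPM in members and 1219 CPM in middle cells. The matrix receptor subunit Itgb1 had 806 CPM in members and 477 CPM in middle cells, while its partner Itga3 had 133 CPM in members and 202 CPM in middle cells. The hemidesmosome collagen Col17a1 had 165 CPM in members and 259 CPM in middle cells. Trp63, the master regulator of stratified epithelia, had 101 CPM in members and 86.6 CPM in middle cells. Of 9 spinous genes 2 were up (Ly6d and Endou) and 4 down (Krtdap, Lgals7, Dmkn and Fabp5), and Krt10, the keratin that marks the step out of the basal layer, had 29.8 CPM in members and 26.8 CPM in middle cells. The spinous list had a median log2 ratio of −0.37 in the library and of 0.16 inside clusters 2, 3 and 4, where 1 of 8 measured genes was up and none down, with Dmkn at a ratio of 1.13 and Fabp5 at 0.935.

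The cornified envelope genes split. Of 10 measured, 4 were up (Lor, Cdsn, Spink5 and Tchh) and 3 down (Tgm1, Sprr1a and Sprr2h), with a median log2 ratio of −0.25. Inside clusters 2, 3 and 4 the median was 0.19, with 3 of 9 measured genes up and 1 down. Cdsn, the corneodesmosome glue, had 21.5 CPM in members and 7.72 CPM in middle cells. Tgm1, the enzyme that crosslinks the envelope, had 3.86 CPM in members and 10.8 CPM in middle cells. Ivl (involucrin) had 40.1 CPM in members and 41.4 CPM in middle cells. The stress and alarmin list split as well, with 4 of 8 up (S100a8, S100a9, Slpi and Lcn2) and 3 down (the keratins Krt6a, Krt16 and Krt17). Lcn2, an iron-sequestering secreted protein, had 183 CPM in members and 35.7 CPM in middle cells, 454 CPM in members of cluster 4 and 31.9 CPM in those of cluster 2. Krt6a had 1012 CPM in members and 1858 CPM in middle cells. Reads of Sprr, Krt6 and Ly6 family members can be split or lost between near-identical copies, so these values are uncertain.

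Of 12 measured cadherins and catenins none was up and 1 down (Cdh13), with a median log2 ratio of −0.21. These counts are close to the shares over all genes, 11.3% up and 5.65% down. Cdh1 had 70.9 CPM in members and 83.2 CPM in middle cells. Cdh3 had 79.5 CPM in members and 70.7 CPM in middle cells. Ctnna1, the catenin that ties cadherins to actin, had 510 CPM in members and 375 CPM in middle cells (ratio 1.36, 1.32 to 1.40). Ctnnb1 had 138 CPM in members and 145 CPM in middle cells. Of 8 measured genes of mesenchymal transition, 1 was up (Acta2, 11.3 CPM in members and 4.86 CPM in middle cells) and 2 down (Fn1, 11.1 CPM in members and 27.4 CPM in middle cells, and Mmp14), with a median log2 ratio of −0.17. Vim, the intermediate filament of mesenchymal cells, was at 0 in members, as were Col1a1 and Cdh11.

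In the Notch list, around Hes6, 2 of 12 measured genes were up and 3 down, with a median log2 ratio of 0.27. Hes1, the repressor Notch signalling turns on and Hes6 counteracts, had 310 CPM in members and 163 CPM in middle cells (ratio 1.90, 1.83 to 1.98), and 439 CPM in members of cluster 4. Rbpj, the DNA-binding partner of Notch, had 43.9 CPM in members and 22.9 CPM in middle cells. The receptor Notch1 had 21.7 CPM in members and 34.4 CPM in middle cells. The ligand Jag2 had 44.5 CPM in members and 67.5 CPM in middle cells. The feedback gene Nrarp had 8.89 CPM in members and 16.8 CPM in middle cells. In Diff_MK, Hes1 had a ratio of 1.16 and Rbpj of 1.99.

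In the purine list, around Ada, 1 of 20 measured genes was up and 3 down, with a median log2 ratio of −0.13. Xdh, which oxidises hypoxanthine to uric acid, had 28.5 CPM in members and 14.9 CPM in middle cells. The synthesis enzymes Ppat (31.3 CPM in members and 47.5 CPM in middle cells), Adss (176 CPM in members and 305 CPM in middle cells) and Impdh2 (119 CPM in members and 180 CPM in middle cells) were the 3 down. Adk, which competes with Ada for adenosine, had 43.6 CPM in members and 45.2 CPM in middle cells. Pnp, the next enzyme after Ada, had 65.5 CPM in members and 73.1 CPM in middle cells. Of 16 measured subunits of protein phosphatase 4 and its relatives none was past 1.5-fold in either direction. The catalytic subunit Ppp4c had 89.4 CPM in members and 76.6 CPM in middle cells. Prnp, the prion protein that doppel resembles, had a ratio of 1.32, with 132 CPM in members.

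In the lists of cell division most genes passed in neither direction, and more were down than up. Of 36 measured G1/S genes 3 were up and 8 down (median log2 ratio −0.37), of 43 G2/M genes 2 were up and 9 down (−0.30), and of 10 replication-dependent histones 4 were down and none up (−0.53), where over all genes 11.3% were up and 5.65% down. Rrm2, a subunit of ribonucleotide reductase, had 168 CPM in members and 285 CPM in middle cells. The 3 G1/S genes up were Ung, Ccne1 and Ccne2, and the cyclin Ccne2 had 26.9 CPM in members and 12.3 CPM in middle cells. Among members, Mki67 had 184 CPM in cluster 3, 75.4 CPM in cluster 4 and 36.0 CPM in cluster 2. Cdkn1a, the p21 inhibitor of cyclin-dependent kinases, had 239 CPM in members and 170 CPM in middle cells. Inside clusters 2, 3 and 4 the medians were −0.02 for G1/S genes and 0.00 for G2/M genes, so the difference was not seen in the pool of these clusters. In the growth list 1 of 11 measured genes was up and 3 were down (Ncl, Nop56 and Myc, median log2 ratio −0.40), with the transcription factor Myc at 25.9 CPM in members and 48.7 CPM in middle cells.

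In 3 small lists genes up outnumbered genes down, as they did over all genes (11.3% up, 5.65% down). Of 6 measured interferon and major histocompatibility genes 3 were up and none down (median log2 ratio 0.34), but inside clusters 2, 3 and 4 only 1 was up and the median was −0.03. H2-D1, a class I heavy chain, had 942 CPM in members and 307 CPM in middle cells (ratio 3.06, 2.99 to 3.14) and 1590 CPM in members of cluster 4. H2-K1 had 105 CPM in members and 57.4 CPM in middle cells, though reads of these near-identical genes can be split, and their partner B2m had 89.8 CPM in members and 106 CPM in middle cells. Of 20 early-response genes 5 were up and 1 down (median log2 ratio 0.41), and inside clusters 2, 3 and 4, 3 were up and 2 down (0.21). Their levels in the library include Fosb at 23.4 CPM in members and 6.78 CPM in middle cells and Atf3 at 62.1 CPM in members and 24.2 CPM in middle cells. Of 10 WNT genes 4 were up and none down, and inside the 3 clusters 3 were up and none down. The secreted inhibitor Sfrp1 had 15.6 CPM in members and 3.19 CPM in middle cells. The feedback gene Axin2 had 12 CPM in members and 2.59 CPM in middle cells. The larger list of ER stress and amino acid response was mixed, with 3 of 23 measured genes up and 2 down (median log2 ratio −0.08). Its largest ratio was that of Ddit3, a factor of the unfolded protein response, with 100.1 CPM in members and 27.8 CPM in middle cells.

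Other lists were mixed, where over all genes 11.3% were up and 5.65% down. Of 12 desmosome genes 1 was down (Evpl) and none up, and of 11 tight and gap junction genes 3 were down (Cldn1, Cldn7 and Gja1) and none up. Of 16 genes of the NRF2 antioxidant response 4 were up (Gclm, Srxn1, Slc7a11 and Me1) and 1 down (Gsta4), with a median log2 ratio of 0.23. Of 27 sterol and fatty acid synthesis genes 3 were up (Sqle, Sc5d and Stard4) and 2 down, among them Elovl6, counts near the shares over all genes. In the top cells of Diff_MK none of 28 such genes was up and 12 were down, where 11.9% of all genes were up and 2.45% down. Of 12 chemokine and cytokine genes 3 were up (Ccl2, Il18 and Nfkbia) and none down, and of 13 heat shock genes 2 were up (Hspa1b and Cryab) and none down. Both measured muscle genes, Acta2 and Tnnt2, were up, Tnnt2 at 176 CPM in members and 112 CPM in middle cells, while Myod1, Myog and Myh11 were at 0 in members.

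Most listed markers of other cell types were at or near 0, but each list except those of melanocytes and erythroid cells had 1 or more measured genes. No melanocyte or erythroid gene of 9 and 6 listed was measured, with summed levels of 4.13 and 3.32 CPM in members and of 2.29 CPM each in middle cells, and Tyr, Tyrp1 and Dct were at 0 in members. Of 14 immune genes only Cd68 was measured, at 15.6 CPM in members and 4.59 CPM in middle cells, while Cd3e, Lyz2, Itgam and Tyrobp were at 0. The immune list summed to 17.2 CPM in members and 5.27 CPM in middle cells, and its part in the differences above was not tested. Fibroblast genes summed to 26.9 CPM in members and 30.01 CPM in middle cells, nearly all from Twist2 (26.0 CPM in members and 29.3 CPM in middle cells), with Col1a1, Col1a2, Col3a1 and Dcn at 0 in members. Endothelial genes summed to 25.4 CPM in members and 27.6 CPM in middle cells, mostly from Egfl7, with Cdh5, Tek, Emcn and Cldn5 at 0 in members. Merkel and neuroendocrine genes summed to 11.2 CPM in members and 20.6 CPM in middle cells, with Atoh1 and Chga at 0 in members. Of 5 measured neural and neural crest genes 1 was up (Tubb3) and 3 were down (Sox2, Ncam1 and Stmn2). Tubb3, a tubulin of neurons, had 117 CPM in members and 55.6 CPM in middle cells, its part in the differences above was not tested, and Sox10 and S100b were at 0 in members. Of the cells with the highest Scrublet doublet scores, 23 were members (3.20%) and 257 were middle cells (7.16%), and doublets were not removed.

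The ratios were uneven over the chromosomes. The median log2 ratio was 0.28 over 251 measured genes of chromosome 16, where 16.7% were up and 0.797% down, and 0.26 over 367 genes of chromosome 10, where 17.2% were up and 1.63% down. On chromosome 12, 289 genes had a median of −0.13, with 5.19% up and 12.1% down, and the other autosomes lay between −0.03 and 0.10. Genes of chromosome 16 made up 2.17% of the UMIs in members and 1.86% in middle cells. The 3 measured Y genes made up 0.0535% in members and 0.0317% in middle cells. Eif2s3y, a Y-linked translation factor named after its value was seen, had 75.1 CPM in members and 22.3 CPM in middle cells. These shares differed between clusters. A median of 2.16% to 2.20% of UMIs came from chromosome 16 in clusters 2, 3 and 4, against 1.71% and 1.74% in clusters 0 and 1. The share was as high in clusters 7, 8 and 10, at 2.29%, 2.26% and 2.24%, where members made up 2.24%, 3.51% and 0% of the cells. Eif2s3y had 69.2 CPM in the 3 clusters and 4.66 CPM in all others together. Among those others it had 60.2 CPM in cluster 10 (18 cells), 32.7 CPM in cluster 7 (134 cells) and 29.2 CPM in cluster 9 (53 cells). Inside clusters 2, 3 and 4 the medians were 0.08 for chromosome 16, 0.03 for chromosome 10 and 0.03 for chromosome 12. The part of these shares in the gene differences above was not tested.

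**Figure D5:**
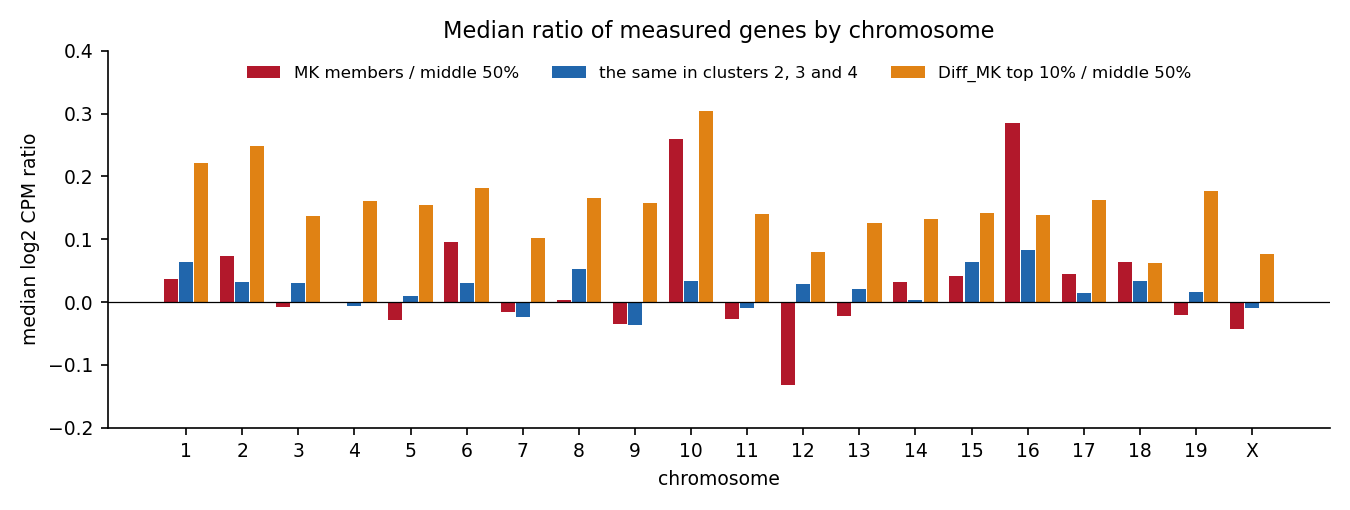
Median log2 CPM ratio of measured genes by chromosome, for members over middle cells in MK, for the same inside clusters 2, 3 and 4, and for the top 10% over the middle 50% in Diff_MK. In MK chromosomes 10 and 16 stand at 0.26 and 0.28 and chromosome 12 at −0.13, and inside the 3 clusters all of these lie between 0.03 and 0.08.

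The same rule in the Diff_MK library gave 692 top cells of 6912 kept cells and 3456 middle cells. It cut at a lower score there: the lowest top cell scored 0.332, while MK middle cells reached 0.359. Of the Diff_MK middle cells 1253 had no UMI of a score gene, against 0 in MK. Ratios of the 2 libraries thus compare cells at unlike scores. Only 146 Diff_MK cells (2.11%, 1.79 to 2.48) reached the score of an MK member, and 43.1% scored 0. After thinning to 7500 UMIs the share was 3.27%, 205 of 6277 cells. In the top cells of Diff_MK, 932 of 7810 genes (11.9%) were up and 191 (2.45%) down, around a median log2 ratio of 0.16. At 2-fold, 299 genes (3.83%) were up and 64 (0.819%) down. Of 7581 genes measured in both libraries, 775 were up in MK and 913 in Diff_MK, and 557 were up in both, 71.9% of the MK genes and 61.0% of the Diff_MK genes, where 12% of all genes were up in Diff_MK. Of 410 genes down in MK and 127 down in Diff_MK, 76 were down in both, 18.5% of the MK genes and 59.8% of the Diff_MK genes, where 1.68% of all genes were down in Diff_MK.

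The leading genes had the same direction in the second library. All 12 highest genes of MK had ratios above 1 in Diff_MK, from 2.07 for Kcnj15 to 18.6 for Pkdcc, and all 12 lowest had ratios below 1, from 0.114 for Lgals7 to 0.735 for Pclaf. Lor had 121 CPM in the top cells of Diff_MK and 13.1 CPM in its middle cells. Pth1r had 17.1 CPM in the top cells of Diff_MK and 0.970 CPM in its middle cells. Among genes at 20 CPM or more in Diff_MK, the 10 highest included Fam131c, Mt3, Lor, Stox2, Dntt, Vamp5, Tchh, Sirt1 and Antxr2. Sirt1, a deacetylase, had 133 CPM in the top cells of Diff_MK and 19.7 CPM in its middle cells, and 129 CPM in MK members and 41.5 CPM in MK middle cells. Chromosome 10 had a median log2 ratio of 0.30 in Diff_MK and chromosome 16 of 0.14. Genes of chromosome 16 took 1.74% of UMIs in the top cells of Diff_MK and 1.72% in its middle cells, and Y genes took 0.0333% in the top cells and 0.0308% in the middle cells.

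Members came from many clones. A tag was assigned to 415 of 718 members (57.8%, 54.1 to 61.4) and to 64.0% of middle cells (62.4 to 65.5) by a leading tag of at least 3 counts that stood 2-fold or more over its runner-up. Such a tag held 50% or more of a cell's tag counts in only 5 members (0.696%), so a clone here means cells that share a leading tag. The assigned members fell into 230 clones, 157 of them with 1 member, and the largest held 16 members. The effective number of clones, from Shannon's entropy, was 164.8 among members and 233.8 among the larger number of middle cells. By Simpson's index, which weights large clones more, it was 141.5 among members and 93.4 among middle cells. In 46 clones of 20 or more cells, members made up between 0% and 40.9% of the cells, with a median of 6.78%. The intervals of 3 clones lay above that of the other assigned cells, the highest with 9 members of 22 cells, and that of 1 clone lay below, with 2 members of 97 cells. Tags of MK and Diff_MK were matched over the shorter length of each pair, and a match counted only when it was unique on both sides. Cells whose tag had such a match in Diff_MK were members in 7.43% (6.36 to 8.63) of cases. All other assigned cells, whose tags had no match or no unique match, were members in 10.6% (9.38 to 11.9).

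Members also differed from middle cells with the same tag. In 13 clones with 5 or more of each, holding 112 members and 508 middle cells, Pth1r, Lor and Tchh were higher in members of 13 of 13 clones. Vcan, Krtdap, Fst, Pclaf, Tpm1 and Myh10 were lower in 13 of 13. Lor had a ratio of 14.1 and Krtdap of 0.21 when middle cells were weighted to the members of each clone. The share of chromosome 16 kept a ratio of 1.20 and that of the Y genes of 1.68 within these clones, against 1.17 and 1.69 for the same shares in the whole library. In Diff_MK, 28 such clones gave smaller differences between top and middle cells. Lor was higher in the top cells of 24 of 28 clones with a ratio of 2.76, against 9.23 in the whole library, and Tchh in 21 of 28 with a ratio of 1.95, against 7.46. Fam131c had a ratio of 2.58 within clones, against 11.3 in the whole library. Krtdap was lower in 16 and higher in 12 of the 28 clones, and Krt16 lower in 14 and higher in 14.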

How the data were processed

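Transcriptomes were read with 10x 3′ v3 kits and tags by a CITE-seq-type protocol, from cells sorted for GFP, per the labels' protocols. Each RNA matrix gives raw UMI counts by gene and barcode, written by Cell Ranger 6.1.2 (per the file headers) on mm10 (per the submitters' processing notes). The deposited tag matrices give counts by tag and barcode; the sources used here do not state whether they are UMIs or reads. Of MK tag counts 18.2% had no mapped tag and were left out.

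The members and gene lists were chosen with earlier results of these data known. UMIs were summed over the cells of a group and scaled to CPM; a gene was measured when either group had 10 CPM. Ratios carry exact conditional binomial intervals and shares exact Clopper-Pearson intervals, at 95%. Up means a ratio of 1.5 or more, down 1/1.5 or less. Cells of 1 library are not replicates, so no p-value was computed. Named genes are the score genes, the 12 highest and 12 lowest ratios at 20 CPM or more without predicted, mitochondrial and ribosomal protein genes, the 10 highest of Diff_MK, and members of the lists. Which list members were given with values, and Eif2s3y, were settled after their values were seen. Clusters came from Leiden clustering with leidenalg, on variable genes picked with scanpy 1.11.5 without the score genes. Thinning drew 7500 UMIs per cell and left out 35 members and 128 middle cells. Positions come from GENCODE vM21 on GRCm38, where 32235 of 32285 genes were found by identifier, and promoters from RefSeq on GRCm38.p6. The ratio and its interval were run on simulated group counts, drawn independently by gene from a Poisson model with planted 2-fold changes. The simulation held no spread between cells, no clusters and no choice of cells by score, so it does not cover those. Alternatives were another cell filter, top 5% and 20%, all other cells, thinned scores, split UMIs, doublet scores, equal cell weights, median scaling, other CPM minimums, a score without Prnd, weighting by depth or cell cycle, and other tag calls. Comparisons inside clusters 2, 3 and 4 and within clones were added after seeing the data. Some genes that the rule or the lists name are not reported here.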

Additional observations from a re-analysis of the deposited data

Results flagged for a closer look

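Some values moved in opposite directions in the MK and Diff_MK libraries under the same choice of cells; with 1 library each, the differences were not tested. The median log2 ratio of the G1/S list was −0.37 in MK members (3 of 36 genes up, 8 down) and 0.24 in the top cells of Diff_MK (4 up, 0 down of 35). That of the G2/M list was −0.30 in MK and 0.19 in Diff_MK, and that of the purine list −0.13 and 0.16. All genes had a median of 0.03 in MK and 0.16 in Diff_MK, so the Diff_MK medians of these lists lay near that of all its genes.

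Of 7581 genes measured in both libraries, 11 passed 1.5-fold in opposite directions, and they were named after their values were seen. In MK members 6 were higher and in the top cells of Diff_MK lower. The Y-linked helicase Ddx3y had a ratio of 2.68 in MK (15.5 CPM in members and 5.79 CPM in middle cells) and 0.610 in Diff_MK (10.6 and 17.4 CPM). The keratinocyte surface gene Ly6d had ratios of 1.62 and 0.588, its relative Ly6g6c 2.13 and 0.532, and Ctla2a, a protease inhibitor, 2.04 and 0.570. The chaperone Clu had 1.71 in MK and 0.318 in Diff_MK, and C2cd2, on chromosome 16, 1.67 and 0.653. The other 5 were lower in MK members and higher in the top cells of Diff_MK. They were the semaphorin receptor Nrp2 (0.609 and 1.56), the cell cycle factor Mybl2 (0.639 and 1.67), Snai3 (0.554 and 1.60), the adhesion protein Ntm (0.611 and 1.54) and Ccbe1 (0.545 and 1.52).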

How the results depend on the processing

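No analysis paired over libraries was possible because each group is 1 library, and the results come from no test. Members and middle cells with the same tag were compared within clones, as given above. The 897 genes up and 447 down stayed within 1.5 times under the other alternatives apart from the top 20% (257 down) and a minimum of 50 CPM, which measures fewer genes (352 up, 118 down). Added after seeing the data, the comparison inside clusters 2, 3 and 4 left 490 up and 121 down, and that within clones gave 812 down. Inside those clusters the ratio of a score gene in cells ranked without it was 0.99 for Cdh2 and 0.98 for Prnd, now below 1, and 1.04 for Hes6, 1.25 for Ada and 1.46 for Ppp4r4. Krtdap (1.02) and Krt16 (1.07) turned above 1 there, and the median of the neural list (0.0938) above 0; the cause was not tested. Other list medians changed sign there too: spinous to 0.16, cornified envelope to 0.19, CDK inhibitors to −0.17, interferon to −0.03 and G2/M to 0.00, and with both values near 0 those of TGF-beta and YAP, prion partners, EGF, chemokines, heat shock and ER stress. The ratio of Ada was 2.67 at the top 5% and 2.17 at the top 20%, that of Hes6 1.99 at the top 20% and 1.91 with thinned scores, and that of Cdh2 1.40 without Prnd in the score. The share of Diff_MK cells above the MK threshold was 0.781% at the top 5%, 5.66% at the top 20% and 3.27% with thinned scores. Assigned members were 61.5% under the stricter cell filter. With 10 counts for the leading tag 54.0% of members and 61.3% of middle cells were assigned, with 3 times the next tag 53.3% and 61.0%, and with 50% of a cell's tag counts 0.696% and 2.48%, or 5 members in 5 clones. The top 5% had an effective 104.3 clones. Named genes gave 384 alternative ratios, of which 233 stayed within the counting interval, 149 moved and 2 crossed 1. When members were chosen on 1 part of the UMIs and measured on the other, 472 of 718 top cells were also members, and the ratio was 3.12 for Ada, 1.57 for Cdh2, 3.94 for Hes6, 2.15 for Ppp4r4 and 2.46 for Prnd, against 4.35, 2.79, 5.46, 3.32 and 3.79 with all UMIs. Counting intervals do not cover variation between libraries, and they are wide for genes near 10 CPM.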
